A study of Mus musculus with 12 samples.

Results

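The collagens described here are 10 of the 8251 named genes measured in mouse cardiac muscle: the fibrillar chains Col1a1, Col1a2, Col3a1, Col5a1 and Col5a2, the basement membrane chains Col4a1, Col4a2, Col15a1 and Col18a1, and Col6a1. They were chosen by gene name, and every probe set that the array annotation gives to one of them alone was taken. All 10 genes had at least 1 probe set, 20 of the 12422 probe sets that are not controls. Of these 20, 16 had a signal high enough to be tested, among 7453 tested in all. Col3a1 102990_at and Col18a1 101881_g_at, 101882_s_at and 162483_f_at were too dim for a test.

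Collagens are triple helices of 3 chains that cells secrete into the matrix. Fibrillar collagens I, III and V, made in the heart mainly by fibroblasts, form the fibres between muscle bundles that carry tension. Collagen IV forms the sheet-like network of the basement membrane around each cardiomyocyte and capillary, and collagens XV and XVIII attach to that membrane. Collagen VI forms beaded filaments between the membrane and the fibres.

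Hearts came from male NMRI mice aged 10 to 15 weeks in 4 conditions: healthy or diabetic, and in each case sedentary or trained. Diabetic mice had been given 180 mg/kg of streptozotocin, a toxin of the insulin-producing beta cells, and healthy mice the citrate buffer alone. Trained mice ran on a treadmill at 21 m/min and an incline of 2.5 degrees, 1 h per day on 5 days per week, for 1, 3 or 5 weeks, and were killed 24 h after their last bout. Each of the 12 condition and week groups was 1 pool of RNA from 5 mice on 1 Affymetrix MG_U74Av2 array. All values below are deposited signals in linear units, scaled by the authors to a common mean, or log2 differences between such signals. The p-values come from limma over all 12 arrays, with condition and week as factors and Benjamini-Hochberg adjustment over the 7453 probe sets, and a probe set passed at an adjusted p under 0.05. They measure the spread between pools that is left after condition and week, and not that between animals.

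The diabetic trained array of week 3 stood apart. It had a run day and chip lot of its own, its RNA had been labelled again after an earlier array with high background, and its mean correlation with the other arrays was 0.855 against 0.940 to 0.954 for the rest. Its median signal was 25.4, against 16.6 to 20.4. No run day was shared between weeks 1, 3 and 5, week 5 had a chip lot that no other week used, and each condition had its own fluidics module. Week and run day cannot be told apart, nor can week 5 and its lot, nor condition and module. The samples were cardiac by their markers: all 9 measured cardiomyocyte markers were above 13.8, the highest signal of any bacterial or yeast control, and their summed signal was 24548 to 33513. The healthy sedentary array of week 1 also held the lung secretory marker Scgb1a1 at a signal of 205.4, and that of week 3 held it at 55.6, against 7.3 to 19.2 on the other 10 arrays.

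The sequences shown are promoter windows, those of Col4a1 and Col4a2 because their windows overlap and both were lower in every diabetes pair below, and that of Col3a1 as a fibrillar chain beside them. Each window holds 250 bases before and 50 after the annotated start, from RefSeq on build GRCm38.p6, 5′ to 3′ on the strand of the gene. Capitals in the windows of Col4a1 (chr8:11312777-11313076, minus strand) and Col4a2 (chr8:11312555-11312854, plus strand) mark the 78 bases that both windows share. The genes lie head to head there. Capitals in the Col3a1 window (chr1:45311288-45311587, plus strand) mark its 1 match to TATAAA.
Col4a1: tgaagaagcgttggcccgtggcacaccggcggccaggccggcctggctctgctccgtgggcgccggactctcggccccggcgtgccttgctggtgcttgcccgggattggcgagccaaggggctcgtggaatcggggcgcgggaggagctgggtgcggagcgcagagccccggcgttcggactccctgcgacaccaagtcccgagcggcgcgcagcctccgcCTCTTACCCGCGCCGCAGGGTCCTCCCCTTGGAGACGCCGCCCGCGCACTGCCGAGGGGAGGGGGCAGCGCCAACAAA
Col4a2: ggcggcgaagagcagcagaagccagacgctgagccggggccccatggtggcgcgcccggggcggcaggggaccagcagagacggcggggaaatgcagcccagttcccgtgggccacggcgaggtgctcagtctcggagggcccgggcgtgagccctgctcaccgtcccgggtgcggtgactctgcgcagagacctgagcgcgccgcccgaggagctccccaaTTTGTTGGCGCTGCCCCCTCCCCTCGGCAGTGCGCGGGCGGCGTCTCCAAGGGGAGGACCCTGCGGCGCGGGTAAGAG
Col3a1: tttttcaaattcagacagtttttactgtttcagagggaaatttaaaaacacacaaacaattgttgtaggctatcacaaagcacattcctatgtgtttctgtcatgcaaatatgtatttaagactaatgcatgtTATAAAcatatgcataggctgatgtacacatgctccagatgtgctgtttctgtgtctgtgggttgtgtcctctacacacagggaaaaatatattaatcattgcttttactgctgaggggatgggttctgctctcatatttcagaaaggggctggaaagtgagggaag

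RefSeq windows were matched for 8 of the 10 genes; Col1a1 and Col5a2 were not matched. The windows were searched on both strands for CCAAT, for GGGCGG and for TATAAA. Of the 32851 windows of the table, 37.4% held CCAAT, 35.7% held GGGCGG and 13.6% held TATAAA. The stretch that Col4a1 and Col4a2 share held 1 GGGCGG, 0 CCAAT and 0 TATAAA. Their windows were 74% and 73.7% G or C, against 37.7% for Col3a1 and a median of 52.7% over the table. A match describes the letters of a window and nothing about a factor.

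Diabetes was compared over both training states, 6 diabetic against 6 healthy arrays. Col4a1 fell and was the 1 member of 16 tested that passed. Of all 7453 probe sets tested, 0.765% passed in either direction and 0.389% passed as lower. Of the 16 member probe sets, 15 had an estimate below 0, against 52.2% of all probe sets, and their median log2 difference was -0.49 against -0.02. At an unadjusted p under 0.05, 9 of the 16 were lower and 0 higher, against 6.92% and 4.86% of all probe sets. In bulk RNA, fewer cells of a type and less RNA per cell cannot be told apart.

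Col4a1 (101093_at) encodes the main chain of collagen IV, which joins with Col4a2 in a fixed ratio. Its signal in healthy sedentary hearts was 505.0, 502.9 and 302.2 at weeks 1, 3 and 5, and in healthy trained hearts 497.0, 398.4 and 298.9. In diabetic sedentary hearts it was 343.3, 301.6 and 212.8, and in diabetic trained hearts 362.4, 257.5 and 217.8. At every week both diabetic arrays lay below both healthy arrays, while over all weeks the groups overlapped, since healthy hearts of week 5 were as low as the diabetic sedentary heart of week 3. The mean was 282.6 ± 63.4 (SD, n = 6) in diabetic and 417.4 ± 99.0 (SD, n = 6) in healthy hearts. The difference was -0.56 on the log2 scale (SE 0.10), 1.47-fold lower, with a limma adjusted p of 0.0326, and the 6 week-matched differences ran from -0.74 to -0.46. Without the diabetic trained array of week 3 it was -0.50, with a limma adjusted p of 0.0131. Without the healthy sedentary array of week 1, on which Scgb1a1 was high, it was -0.58 with a limma adjusted p of 0.083. When each of the 12 arrays was left out in turn, Col4a1 passed in 2 of 12 fits, those without the diabetic trained array of week 1 or 3, and the difference stayed at -0.59 to -0.50.

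Col4a2 (101039_at) encodes the other chain of the common collagen IV network. Healthy sedentary signals were 463.3, 483.6 and 285.3 at weeks 1, 3 and 5, and healthy trained signals 468.8, 373.9 and 210.7. Diabetic sedentary signals were 326.8, 311.2 and 222.8, and diabetic trained signals 340.0, 262.8 and 126.2. Col4a2 was lower in 6 of 6 week-matched differences, from -0.74 to -0.36, as was Col4a1, and at week 5 the diabetic sedentary array lay above the healthy trained one. The estimate, -0.53 (SE 0.12), was close to that of Col4a1 but did not pass (limma adjusted p = 0.0721); it did without the diabetic trained array of week 1 (-0.61, limma adjusted p = 0.0403) or of week 3 (-0.54, limma adjusted p = 0.0452).

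Col15a1 (99637_at) encodes a chain that links the basement membrane to nearby fibres. Its signal was 117.7, 104.4 and 88.4 in healthy sedentary and 48.9, 47.9 and 62.2 in diabetic sedentary hearts at weeks 1, 3 and 5. Trained hearts gave 70.3, 88.0 and 102.3 when healthy and 88.8, 53.3 and 31.6 when diabetic. The sedentary groups did not overlap, whereas the trained ones did, because the diabetic trained array was the higher of its pair at week 1. Over both training states the estimate was -0.83 (SE 0.22, limma adjusted p = 0.123), lower in 5 of 6 week-matched differences.

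Col18a1 encodes a basement membrane chain from which the fragment endostatin is cut. Its brightest probe set, 99638_at, read 56.4, 36.7 and 39.1 in healthy sedentary, 46.4, 48.9 and 37.8 in healthy trained, 52.6, 51.3 and 34.4 in diabetic sedentary and 60.5, 16.7 and 29.3 in diabetic trained hearts. The groups overlapped, and the 1 low value was on the array that stood apart. The estimate was -0.22 (SE 0.23, limma adjusted p = 0.762), and 0.01 without that array. The second tested probe set, 101880_at, ran from 5.4 to 17.7 and differed by -0.15 (SE 0.26, limma adjusted p = 0.871). The 3 dim probe sets had means between 3.48 and 4.40 over the 6 healthy or the 6 diabetic arrays, near the floor of 4.1 set on the signals.

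**Figure D1:**
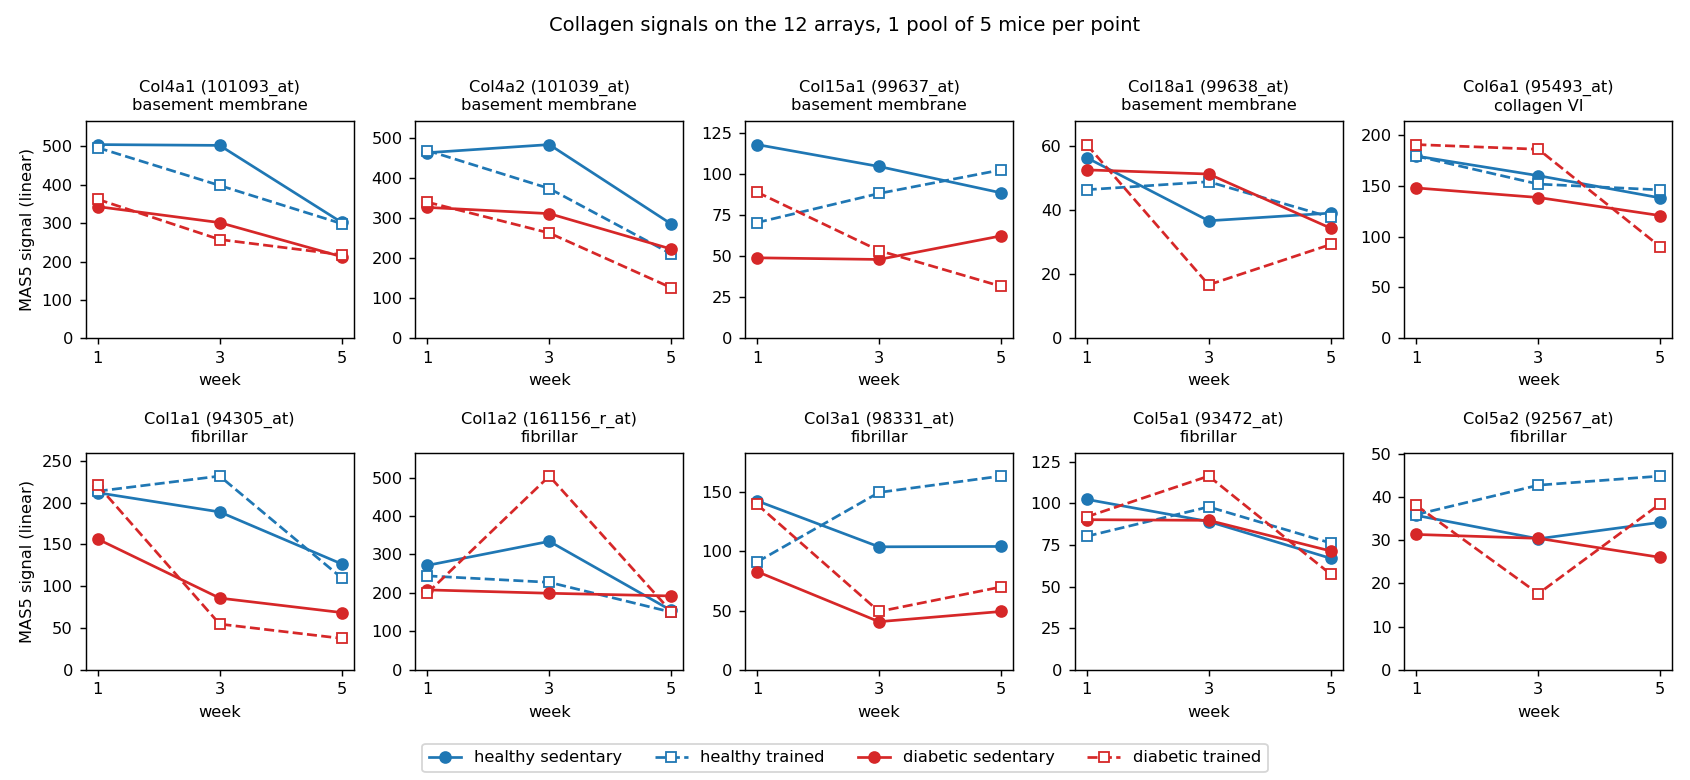
Deposited MAS5 signal (linear scale, from 0) of the brightest tested probe set of each collagen at weeks 1, 3 and 5; each point is 1 array holding a pool of 5 mice, blue healthy, red diabetic, filled circles sedentary and open squares trained. Col4a1 is lower in diabetic than in healthy hearts at each week (343.3 and 362.4 against 505.0 and 497.0 at week 1), while the Col5a1 lines cross and the Col1a2 value of 504.0 is the diabetic trained array of week 3.

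Among the fibrillar chains, Col1a1 encodes the major chain of collagen I. Probe set 94305_at gave 211.9, 188.9 and 126.7 in healthy sedentary and 213.7, 231.8 and 110.0 in healthy trained hearts at weeks 1, 3 and 5. Diabetic sedentary hearts gave 156.4, 85.8 and 68.5, and diabetic trained hearts 220.9, 54.7 and 37.6. Diabetic hearts were below healthy ones at weeks 3 and 5, but at week 1 the diabetic trained array was the highest of its week. The estimate was -1.01 (SE 0.24, 2.01-fold lower), which did not pass (limma adjusted p = 0.0827), with 5 of 6 week-matched differences below 0. It passed without the diabetic trained array of week 1 (-1.28, limma adjusted p = 0.00371), and without that of week 3 it was -0.86 (limma adjusted p = 0.0803). The other Col1a1 probe set, 103709_at, ran from 56.7 to 153.2 and gave a smaller difference in the same direction, -0.37 (SE 0.12, limma adjusted p = 0.205).

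Col3a1 encodes the single chain of collagen III, which co-assembles with collagen I in elastic tissue. Probe set 98331_at read 142.6, 103.8 and 104.1 in healthy sedentary and 82.9, 40.6 and 49.2 in diabetic sedentary hearts. It read 91.0, 149.7 and 163.5 in healthy trained and 139.7, 49.2 and 69.9 in diabetic trained hearts. The diabetic sedentary arrays all lay below the healthy sedentary ones. In trained hearts the order was reversed at week 1 and diabetic hearts were lower at weeks 3 and 5. The estimate was -0.90 (SE 0.24, limma adjusted p = 0.12), and passed without the healthy trained array of week 1 (-1.18, limma adjusted p = 0.0175) and without the diabetic trained array of week 1 (-1.08, limma adjusted p = 0.0487).

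A second Col3a1 probe set, 161984_f_at, whose suffix marks probes that related sequences can share, had lower signals. Its diabetic minus healthy difference had the same direction as that of 98331_at in each week-matched pair. It read 35.5, 20.8 and 21.0 in healthy sedentary, 22.0, 18.8 and 29.7 in healthy trained, 14.9, 5.1 and 6.4 in diabetic sedentary and 23.7, 11.9 and 11.9 in diabetic trained hearts. Both diabetic groups thus lay under the highest control signal of 13.8 at weeks 3 and 5. Its estimate was the lowest among the members, -1.14 (SE 0.25, 2.21-fold lower, limma adjusted p = 0.0642), and it passed without the diabetic trained array of week 3 (-1.16, limma adjusted p = 0.0382). The dim probe set 102990_at had a mean of 9.38 ± 3.06 (SD, n = 6) in healthy and 4.90 ± 2.44 (SD, n = 6) in diabetic hearts.

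Col1a2 encodes the partner chain of Col1a1, and its probe sets disagreed. Probe set 101130_at read 99.3, 121.1 and 132.2 in healthy sedentary, 109.4, 154.5 and 155.6 in healthy trained, 99.5, 65.3 and 104.6 in diabetic sedentary and 147.6, 85.0 and 77.2 in diabetic trained hearts. Its estimate was -0.45 (SE 0.19, limma adjusted p = 0.398). Probe set 161156_r_at ran from 150.1 to 334.2 on 11 arrays and reached 504.0 on the diabetic trained array of week 3. Its estimate was 0.01 (SE 0.20, limma adjusted p = 0.991) with that array and -0.20 without it (limma adjusted p = 0.532).

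Col5a1 and Col5a2 encode chains of collagen V, a minor fibrillar collagen that starts fibrils and limits their width. Col5a1 93472_at ran from 67.0 to 102.4 in healthy and from 57.5 to 116.4 in diabetic hearts. Its estimate was -0.01 (SE 0.13, limma adjusted p = 0.988), so the difference was small beside its error. Col5a1 101080_at ran from 20.4 to 39.0 in healthy hearts and from 24.7 to 29.0 in diabetic sedentary hearts, and read 32.8, 5.8 and 12.7 in diabetic trained hearts. Its estimate of -0.56 (SE 0.32, limma adjusted p = 0.563) became -0.22 without the diabetic trained array of week 3. Col5a2 92567_at ran from 30.3 to 44.8 in healthy and 17.6 to 38.4 in diabetic hearts, with -0.33 (SE 0.20, limma adjusted p = 0.571), or -0.15 without that array.

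Col6a1 encodes a chain of the beaded filaments, and its probe sets also differed. Col6a1 95493_at read 179.4, 160.1 and 138.2 in healthy sedentary, 179.4, 151.8 and 146.1 in healthy trained, 148.0, 138.6 and 120.8 in diabetic sedentary and 190.7, 186.1 and 90.1 in diabetic trained hearts. The estimate was -0.17 (SE 0.14, limma adjusted p = 0.691). Col6a1 162459_f_at was lower in 6 of 6 week-matched differences and its trained groups did not overlap, 36.3 to 42.7 when healthy against 7.1 to 30.1 when diabetic. Its estimate was -0.74 (SE 0.26, limma adjusted p = 0.289), and -0.45 once the array holding the value of 7.1, that of diabetic trained hearts at week 3, was left out.

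**Figure D2:**
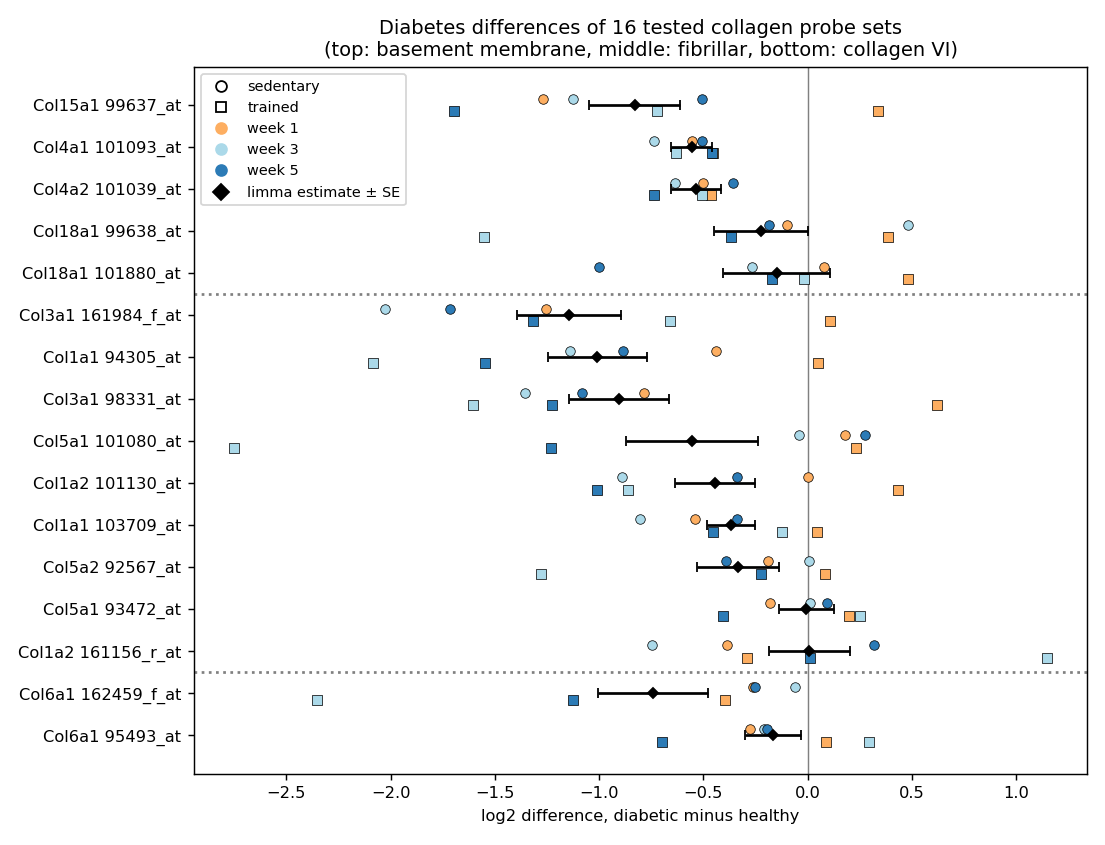
Log2 differences of diabetic minus healthy hearts for the 16 tested probe sets, 1 array against 1 at each week (circles sedentary, squares trained, colour by week), with the limma estimate over both training states and its standard error as a black diamond. All 6 points of Col4a1 (-0.74 to -0.46) and Col4a2 (-0.74 to -0.36) lie below 0 and close together, whereas for Col1a1 94305_at and both Col3a1 probe sets the point of trained hearts at week 1 lies above 0 (0.05 to 0.62) and the other 5 below it.

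Counted over the 16 tested probe sets, 3 were lower in 6 of 6 week-matched differences (18.8%, against 5.73% of all probe sets): Col4a1, Col4a2 and Col6a1 162459_f_at. A further 5 were lower in 5 of 6, which makes 8 of 16 (50%, against 18.2% of all). No member had all 6 diabetic arrays below all 6 healthy ones, as 0.617% of all probe sets did.

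In sedentary hearts alone, 3 diabetic against 3 healthy arrays, 0 of 16 member probe sets passed in limma, where 0.0537% of all did, and 7 were lower at an unadjusted p under 0.05, against 3.3% of all. The groups did not overlap in 3 of 16, against 6.84% of all probe sets. These were both tested probe sets of Col3a1 (161984_f_at -1.67, SE 0.36, limma adjusted p = 0.154; 98331_at -1.07, SE 0.34, limma adjusted p = 0.384) and Col15a1 (-0.97, SE 0.31, limma adjusted p = 0.395). Col4a1 differed by -0.60 (SE 0.14, limma adjusted p = 0.2).

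In trained hearts, 0 of 16 passed in limma, where 0.0268% of all probe sets did, and 7 were lower at an unadjusted p under 0.05, against 6.66% of all. The groups were apart in 1 of 16, Col6a1 162459_f_at, against 4.16% of all. Col4a1 differed by -0.51 (SE 0.14, limma adjusted p = 0.351) and Col4a2 by -0.57 (SE 0.17, limma adjusted p = 0.388). Col1a1 94305_at differed by -1.20 (SE 0.34, limma adjusted p = 0.36). Array medians were 0.11 higher in diabetic than in healthy trained hearts on the log2 scale, so centring the arrays lowers these differences by that amount.

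The difference between the effects of diabetes in trained and sedentary hearts was itself tested as an interaction. None of the 16 passed in limma, 0 at an unadjusted p under 0.05 as well, where 0.0% of all probe sets passed and 4.31% had such an unadjusted p. For Col4a1 the interaction was 0.09 (SE 0.20) and for Col4a2 -0.07 (SE 0.24). The interaction was larger and also less certain for Col5a1 101080_at (-1.39, SE 0.64), Col6a1 162459_f_at (-1.10, SE 0.53) and Col3a1 161984_f_at (1.04, SE 0.50), each with a limma adjusted p of 0.859. Diabetic trained hearts set against healthy sedentary ones shared arrays with the comparisons above. There, 0 of 16 passed in limma (0.0537% of all), 5 were lower at an unadjusted p under 0.05 (7.07% of all), and Col4a1 gave -0.64 (SE 0.14, limma adjusted p = 0.17) and Col4a2 -0.83 (SE 0.17, limma adjusted p = 0.159).

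Fibrillar and basement membrane chains were then set side by side as the mean log2 signal of each class, with the brightest tested probe set of each gene, centred over the 12 arrays. No test was made of these means, since the members were chosen with results known. In sedentary hearts the diabetic minus healthy difference was -0.40, -0.65 and -0.39 for the fibrillar chains at weeks 1, 3 and 5, and -0.61, -0.50 and -0.39 for the basement membrane chains. In trained hearts it was 0.13, -0.71 and -0.68 for the fibrillar chains and -0.05, -0.85 and -0.81 for the basement membrane chains. Both class means were lower in diabetes in each pair except that of trained hearts at week 1, where the fibrillar mean was higher and the basement membrane mean differed least. The fibrillar difference minus the basement membrane difference had a mean of 0.09 (SD 0.13, n = 6 pairs), which is smaller than its spread between pairs. These values rest on the probe set that stands for Col1a2. With Col1a2 101130_at in place of 161156_r_at, a choice made after seeing the data, the fibrillar difference in trained hearts was 0.28, -1.12 and -0.88, so that at weeks 3 and 5 it lay below that of the basement membrane chains instead of above it. The mean of the class difference was then -0.003 (SD 0.25, n = 6 pairs), above 0 in 2 pairs and below 0 in 4.

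Members of a class varied. The 4 basement membrane genes had diabetes estimates from -0.83 to -0.22 with a median of -0.55, and the 5 fibrillar genes from -1.01 to 0.01 with a median of -0.33. The standard error of Col4a1 (0.10) and Col4a2 (0.12) was smaller than that of Col1a1 94305_at (0.24) and Col3a1 98331_at (0.24), whose estimates were larger.

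**Figure D3:**
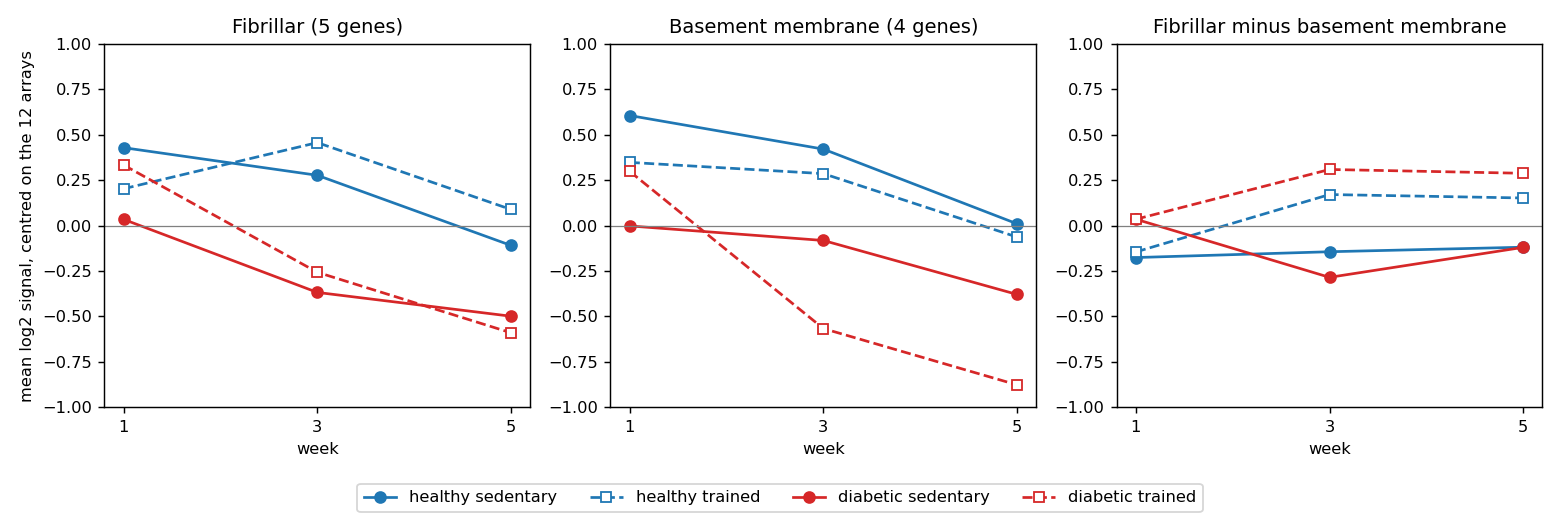
Mean log2 signal of the fibrillar chains (left, 5 genes), of the basement membrane chains (middle, 4 genes) and their difference (right), each centred over the 12 arrays, by week; blue healthy, red diabetic, filled circles sedentary and open squares trained, 1 array per point. The red lines lie below the blue ones at weeks 3 and 5 for both classes, and in the right panel the trained arrays of weeks 3 and 5 (0.15 to 0.31) lie above all sedentary arrays (-0.28 to 0.04); with Col1a2 101130_at the diabetic trained array of week 3 (0.001) no longer does.

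Training was compared over both disease states, 6 arrays against 6. No member passed in limma (0 of 16, where 0.0% of all probe sets did), and 1 of 16 had an unadjusted p under 0.05, against 3.45% of all. That 1 was Col4a2, with -0.30 (SE 0.12, limma adjusted p = 0.998). The median over the 16 was 0.02, against -0.02 over all probe sets. None kept 1 sign through the 6 week-matched differences, against 2.36% of all probe sets.

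In healthy hearts, 0 of 16 passed in limma (0.0% of all) and 0 had an unadjusted p under 0.05 (2.04% of all). Col4a1 differed by -0.12 (SE 0.14) and Col3a1 98331_at by 0.18 (SE 0.34), trained minus sedentary. In diabetic hearts, 0 of 16 passed in limma (0.0% of all) and 1 had an unadjusted p under 0.05 (7.15% of all), Col3a1 161984_f_at at 0.93 (SE 0.35, limma adjusted p = 0.665). This probe set was higher in trained than in sedentary diabetic hearts at all 3 weeks, by 0.67, 1.22 and 0.90, and the other probe set, 98331_at, by 0.75, 0.28 and 0.51. Col1a1 94305_at went both ways, by 0.50 at week 1, -0.65 at week 3 and -0.86 at week 5.

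Of all 7453 probe sets tested, 15.4% passed between weeks 1 and 5 and 6.9% passed as lower. In this comparison of 4 arrays against 4, 4 of the 16 member probe sets fell and none rose. They were Col4a2 (-0.96, SE 0.15, limma adjusted p = 0.00377), Col4a1 (-0.72, SE 0.12, limma adjusted p = 0.00492) and both probe sets of Col1a1 (103709_at -0.81, SE 0.14, limma adjusted p = 0.00679; 94305_at -1.36, SE 0.29, limma adjusted p = 0.0125). The Col4a1 difference was nearly the same in every condition, at -0.74 in healthy sedentary, -0.73 in healthy trained, -0.69 in diabetic sedentary and -0.73 in diabetic trained hearts. Col1a1 94305_at varied more, from -0.74 in healthy sedentary to -2.56 in diabetic trained hearts. Col3a1 98331_at did not pass (-0.34, SE 0.29, limma adjusted p = 0.436): it was 0.85 higher at week 5 in healthy trained hearts and lower in the other conditions. With each array left out in turn, Col4a1, Col4a2 and Col1a1 103709_at passed in all 12 fits, and Col1a1 94305_at in 10, missing without the week 5 array of diabetic trained (limma adjusted p = 0.056) or healthy trained hearts (limma adjusted p = 0.0533). Without the diabetic trained array of week 3, 8 passed, the others being Col1a2 161156_r_at, Col5a1 93472_at, Col6a1 95493_at and Col18a1 99638_at.

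Lower signals at week 5 in 4 of 4 conditions were found in 9 of the 16 (56.2%, against 27.4% of all probe sets). The array medians were themselves 0.17 lower at week 5 on the log2 scale, and with arrays centred on their median 3 of the 4 passed, Col4a1 missing with -0.56 (limma adjusted p = 0.0672). Week 5 and its chip lot cannot be told apart, and neither can any week and its run day. At week 3 against week 1, 0 of 16 passed in limma (0.0% of all probe sets; array medians 0.10 higher at week 3) and 3 were lower at an unadjusted p under 0.05 (4.13% of all): Col3a1 161984_f_at (-0.89, SE 0.31), Col1a1 94305_at (-0.73, SE 0.29) and Col18a1 99638_at (-0.61, SE 0.28). A change of the diabetes effect along the weeks was also fitted, and 0 of 16 passed in limma or had an unadjusted p under 0.05, where 0.0% and 1.54% of all probe sets did. Its largest sizes were -0.27 per week for Col3a1 98331_at (SE 0.13) and -0.26 for Col1a1 94305_at (SE 0.13), while Col4a1 gave 0.01 (SE 0.06).

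**Figure D4:**
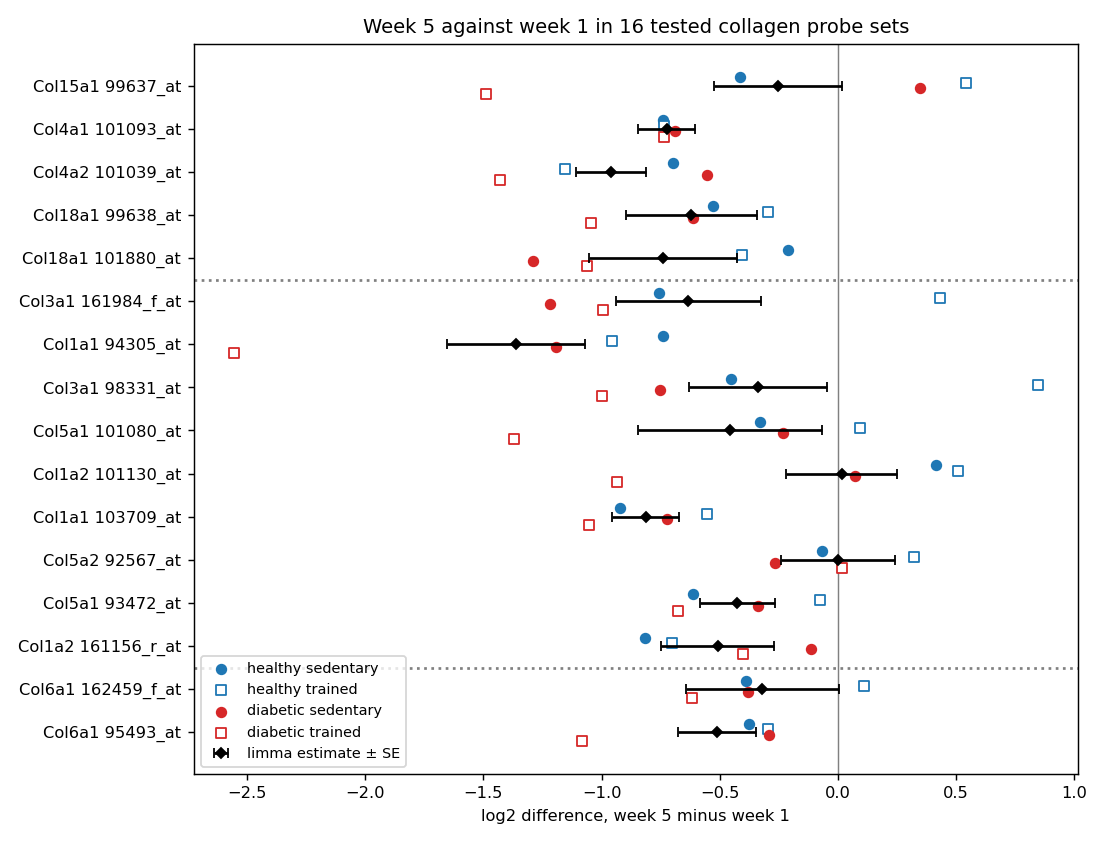
Log2 difference of week 5 minus week 1 for the 16 tested probe sets within each condition (blue healthy, red diabetic, filled circles sedentary, open squares trained; 1 array against 1), with the limma estimate and its standard error as a black diamond. The 4 points of Col4a1 nearly coincide (-0.74 to -0.69), those of Col1a1 94305_at spread from -2.56 to -0.74, and the healthy trained points of Col3a1 lie above 0.

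The genes whose signals followed each class most closely over the 12 arrays were ranked by Pearson correlation of log2 signals, as a description. For the basement membrane chains they were P4ha2 (r = 0.956), Hspg2 (0.952), 1810058I24Rik (0.944), Abhd16a (0.944) and G6pc3 (0.942). P4ha2 encodes a prolyl 4-hydroxylase that collagen chains need to fold, and Hspg2 encodes perlecan, a proteoglycan of the basement membrane. For the fibrillar chains they were Casq1 (0.934), a calcium-binding protein of the sarcoplasmic reticulum, and Stk40 (0.930), Nr2f6 (0.921), Pfkl (0.912) and Rbck1 (0.902). The arrays share scaling, week and condition.

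Genes that fold, process and cross-link collagen were given by 12 tested genes, of which 0 passed in limma for diabetes and 6 were lower at an unadjusted p under 0.05. Their median was -0.39. Of all probe sets tested, 0.765% passed for diabetes, and 6.92% were lower and 4.86% higher at an unadjusted p under 0.05. Lower in 6 of 6 week-matched differences were 5.73% of all, and 15.4% of all passed for week 5 against week 1. These shares apply beside each list below. Serpinh1, the collagen chaperone of the endoplasmic reticulum, read 367.9, 309.6 and 245.6 in healthy sedentary and 168.4, 101.8 and 172.8 in diabetic sedentary hearts at weeks 1, 3 and 5. In trained hearts it read 270.4, 399.4 and 333.5 when healthy and 302.9, 147.5 and 189.9 when diabetic. Its estimate was -0.89 (SE 0.19, limma adjusted p = 0.0558), lower in 5 of 6 week-matched differences, the exception being trained hearts at week 1, as for Col1a1 94305_at and Col3a1. P4ha1 (-0.81, SE 0.20, limma adjusted p = 0.0877), P4ha2 (-0.59, SE 0.14, limma adjusted p = 0.0827) and the collagen-binding matrix protein Sparc (-0.62, SE 0.14, limma adjusted p = 0.0723) were lower in 6 of 6. At week 5 against week 1, Plod3 and P4ha2, enzymes that hydroxylate lysine and proline, and the procollagen protease Bmp1 fell. The differences were -0.69 (SE 0.17, limma adjusted p = 0.0231), -0.58 (SE 0.17, limma adjusted p = 0.0424) and -0.82 (SE 0.21, limma adjusted p = 0.0261).

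Of 10 tested laminins and other basement membrane partners, 1 fell with diabetes, where 0.389% of all probe sets did. Hspg2 read 209.5, 181.2 and 127.7 in healthy sedentary, 219.8, 195.3 and 119.5 in healthy trained, 165.9, 127.6 and 109.9 in diabetic sedentary and 149.2, 76.5 and 52.4 in diabetic trained hearts. It was lower in 6 of 6 week-matched differences (-0.69, SE 0.14, limma adjusted p = 0.0455). The other 9 did not pass and the list's median was 0.03, with the laminin chain Lama4 at -0.26 (SE 0.11) and the proteoglycan Agrn at -0.29 (SE 0.12). At week 5 against week 1, Hspg2 (-0.92, SE 0.17, limma adjusted p = 0.00711), Agrn (-0.75, limma adjusted p = 0.0105) and Lamb2 (-0.60, limma adjusted p = 0.0484) fell, where 6.9% of all probe sets did.

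Other matrix genes gave values in both directions. Of 8 tested genes of collagen degradation and its inhibitors, Timp3, an inhibitor of matrix metalloproteinases, rose with diabetes (0.52, SE 0.10, limma adjusted p = 0.0437) and was higher in 6 of 6 week-matched differences. Mmp14, a membrane-bound collagenase, was higher in 6 of 6 but did not pass (0.41, SE 0.14, limma adjusted p = 0.249), and the list's median was 0.24. Ctsb was lower in 6 of 6 and did not pass (-0.32, SE 0.11, limma adjusted p = 0.283). The inhibitors Timp1 (0.43, SE 0.21) and Timp2 (-0.24, SE 0.13) did not pass either. Of 19 genes of TGF-beta signalling and other collagen regulators, Ccn2, a matrix protein that TGF-beta induces, rose 1.57 on the log2 scale (SE 0.14, limma adjusted p = 0.000334). Its signals were 128.7 to 202.4 in healthy and 319.3 to 810.8 in diabetic hearts, so the groups did not overlap. Ltbp4, which holds latent TGF-beta in the matrix, fell (-0.84, SE 0.16, limma adjusted p = 0.0455), and the other 17 did not pass. Without the diabetic trained array of week 3, Hspg2, Timp3, Ccn2 and Ltbp4 still passed. With each array left out in turn, Ccn2 passed in 12 of 12 fits (1.49 to 1.71), Hspg2 and Ltbp4 in 3 and Timp3 in 2, with their direction kept. At week 5 against week 1, the inhibitor Timp2 (-0.59, limma adjusted p = 0.0301) and Smad7 (-0.71, limma adjusted p = 0.0219), which dampens TGF-beta signalling, fell, and Smad4 rose (0.63, limma adjusted p = 0.0394).

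Of 15 interstitial partners of collagen such as proteoglycans and glycoproteins, 0 passed in limma for diabetes, with 1 lower and 2 higher at an unadjusted p under 0.05 and a median of 0.06. Of all probe sets, 6.92% were lower and 4.86% higher at that unadjusted p. Thbs2, a matricellular regulator of fibrils, had the smallest p (0.93, SE 0.22, limma adjusted p = 0.0877). At week 5 against week 1, Ogn and Lum, small proteoglycans that bind collagen fibrils, rose (1.37, limma adjusted p = 0.00147, and 0.74, limma adjusted p = 0.0119), and Bgn, another, fell (-0.68, limma adjusted p = 0.0296). All 7 tested collagen receptors had estimates below 0 for diabetes and 0 passed in limma, with a median of -0.14 and 1 lower at an unadjusted p under 0.05, Dag1 (-0.34, SE 0.14). The receptor Ddr2 fell at week 5 against week 1 (-1.40, SE 0.28, limma adjusted p = 0.0107). With each array left out in turn, these week 5 calls held in 12 of 12 fits for Hspg2 and Ogn and in 10 for Agrn, Lum and Ddr2. They held in 2 to 7 of 12 for Plod3, Bmp1, P4ha2, Lamb2, Bgn, Timp2, Smad4 and Smad7.

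**Figure D5:**
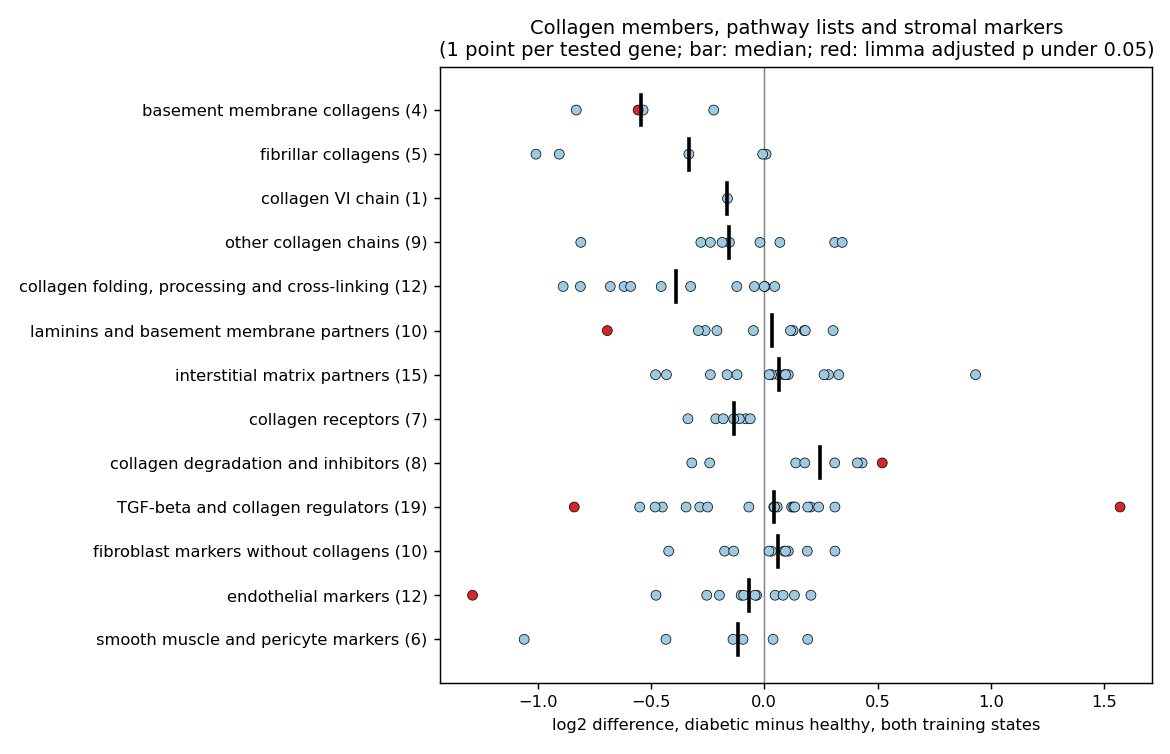
Log2 difference of diabetic minus healthy hearts over both training states, 1 point per tested gene (brightest probe set), for the collagens, lists of related genes and markers of stromal cells; the bar is the list's median and red points passed at a limma adjusted p under 0.05. The basement membrane collagens (median -0.55) and the folding and cross-linking genes (-0.39) lie mostly below 0, while fibroblast markers (0.06) lie around it and Ccn2 lies at 1.57.

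Markers of the cells that make these collagens were counted beside them. Of 10 tested fibroblast markers other than collagens, 0 passed in limma for diabetes, with 1 lower and 1 higher at an unadjusted p under 0.05 and a median of 0.06. Dpt was the lower (-0.42, SE 0.15, limma adjusted p = 0.291) and Pdgfra the higher (0.31, SE 0.11, limma adjusted p = 0.278). Pdgfra differed by 0.92 with diabetes in sedentary hearts (SE 0.155, limma adjusted p = 0.0643) and by -0.295 in trained hearts (SE 0.155, limma adjusted p = 0.503). The summed signal of the 11 fibroblast markers on the array was 4513 to 5362 in healthy sedentary, 4628 to 5548 in healthy trained, 4687 to 5545 in diabetic sedentary and 4254 to 5703 in diabetic trained hearts, and none stayed at the level of the controls. Of 12 endothelial markers, Aqp1, a water channel, fell (-1.29, SE 0.21, limma adjusted p = 0.026, called in 4 of 12 fits with an array left out), the other 11 did not pass, and the median was -0.07. Of those 11, Tie1 (-0.48, SE 0.16, limma adjusted p = 0.243) and Cdh5 (-0.20, SE 0.11, limma adjusted p = 0.545) were lower in 6 of 6 week-matched differences. Kdr was lower in 5 of 6, and Vwf and Eng were higher in 5 of 6. The sum of the 12 endothelial markers was 1877 to 2144, 2080 to 2503, 2021 to 2099 and 1581 to 2286 in the same order of groups, lower in 5 of 6 week-matched differences. The sum of 9 macrophage markers was also lower in 5 of 6, at 598.8 to 762.1, 648.5 to 935.6, 573.2 to 816.4 and 469.5 to 920.4, with 0 of 7 tested passing in limma, 0 at an unadjusted p under 0.05, and Adgre1 and Itgam at control level. The sum of the 9 cardiomyocyte markers was lower in 5 of 6 as well, and its sedentary groups did not overlap, 27564 to 33513 when healthy against 24840 to 25822 when diabetic. In trained hearts it was 26600 to 29760 when healthy and 24548 to 32988 when diabetic. None of the 9 passed in limma, 1 was lower at an unadjusted p under 0.05 (Myh6, the main cardiac myosin, -0.27, SE 0.12), and the median was -0.11.

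Markers of other cells were counted in the same way, and no test was made of any list's sum. The sum of 8 smooth muscle and pericyte markers was lower in 6 of 6 week-matched differences, 448.7 to 465.9 in healthy sedentary, 372.8 to 490.3 in healthy trained, 357.9 to 445.1 in diabetic sedentary and 327.9 to 419.1 in diabetic trained hearts. Of these, Rgs4 stayed at control level and 0 of 6 tested passed in limma, 2 being lower at an unadjusted p under 0.05. The sum of 6 adipocyte markers was higher in 6 of 6, at 170.1 to 218.9, 171.7 to 219.8, 230.1 to 330.8 and 252.8 to 386.1 in the same order. Of 4 tested, 0 passed in limma and 2 were higher at an unadjusted p under 0.05, with Retn and Cidec at control level. Those 2, Fabp4 (0.73, SE 0.17, limma adjusted p = 0.0877) and Lipe (0.88, SE 0.20, limma adjusted p = 0.0741), were higher in 6 of 6. Adipoq (0.51, SE 0.26) was higher in 4 of 6 and Lep (0.24, SE 0.22) in 5 of 6. The sum was not shown to measure an amount of adipocytes. The sum of 8 skeletal muscle markers was 1133 to 1554, 1097 to 1610, 553.2 to 771.4 and 689.1 to 1554, with Ckm fallen (-0.53, SE 0.11, limma adjusted p = 0.0461, called in 2 of 12 fits with an array left out) and Myh1 and Myh2 at control level. Acta1 (-1.075, SE 0.26, limma adjusted p = 0.0898) did not pass. Myh4 (-0.08, SE 0.17) and Mylpf (-0.02, SE 0.23) did not pass either, and over both training states differed by less than their standard errors. This sum was therefore not shown to measure an amount of skeletal muscle. Of the lung markers, Sftpb and Sftpd stayed at control level on all 12 arrays, and the sum of 4 was 240.9 on the healthy sedentary array of week 1 and 26.9 to 105.4 on the rest. The part of these cells in the collagen differences was not tested.

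Some of these markers also passed between weeks 1 and 5, where 15.4% of all probe sets did. Of the fibroblast markers, Dpt, a matrix protein that binds decorin, rose (0.88, SE 0.19, limma adjusted p = 0.0121), beside Lum, which rose, and Ddr2, which fell, as given above. Of the endothelial markers, Eng, a co-receptor of TGF-beta, fell (-0.79, SE 0.21, limma adjusted p = 0.0272) and Kdr, a receptor of VEGF, rose (0.65, SE 0.17, limma adjusted p = 0.03). Myh11, the myosin of smooth muscle, fell (-1.03, SE 0.24, limma adjusted p = 0.0187), as did the lipase Lipe of the adipocyte list (-0.92, SE 0.25, limma adjusted p = 0.03) and the lung marker Scgb1a1 (-1.66, SE 0.46, limma adjusted p = 0.0353). Each of these 6 genes differed in its direction in 4 of 4 conditions. The fit that picked them averages those same differences, so this adds nothing to it. Of all probe sets, 27.4% were lower in 4 of 4. With each array left out in turn, Dpt passed in 10 of 12 fits, Myh11 in 8, Eng and Kdr in 6, and Lipe and Scgb1a1 in 5. None of the tested macrophage or cardiomyocyte markers passed in limma for week 5, while 2 macrophage markers were higher, 1 cardiomyocyte marker lower and 1 higher at an unadjusted p under 0.05. The part of these markers in the week 5 fall of the collagens was not tested.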

How the data were processed

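The authors deposited linear signal intensities per probe set. Per the submitters' processing notes they came from MAS5, whose version is not given in the sources used here. Of 12488 probe sets, 66 controls were left out. The array annotation gave 1 symbol to 10833 of the other 12422, several to 396 and none to 1193, and 10817 symbols were taken through gene identifiers from RefSeq (GRCm38.p6).

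Signals under 4.1 (the 20th percentile) were set to it and log2 was taken. Probe sets with a geometric mean signal at or above 11.6 (the 40th percentile) were tested, 7453 of 5657 named genes, with limma 3.58.1 (lmFit, eBayes with trend) in R 4.3.3, tested on simulated data; tables and plots used Python 3.11.15. Week was a block because mice of a week were killed together per the labels. Deviations from condition means correlated at 0.0797 to 0.64 for the 18 same-week pairs (median 0.272) and -0.452 to 0.246 for the 36 others (median -0.214). Deviations cancel within a condition, so positive same-week values bring negative ones among the others, which are no separate finding. Fold and log2 differences are between group means with week in the model. Alternatives were the floor, filter, scaling, array weights, trend, week block, the arrays fitted and each array or week left out. The number of arrays limits the precision.

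The members, the related gene lists and the marker lists were chosen with earlier results of these data known. Named were every member probe set, list genes past the threshold, up to 4 others per list by smallest p for diabetes, and the 5 genes most like each class. In lists the brightest probe set stands for a gene.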

Additional observations from a re-analysis of the deposited data

How the results depend on the processing

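The fall of Col4a1 with diabetes kept its direction under all 24 alternatives and passed in 7 of them; leaving out each of the 12 arrays gave -0.59 to -0.50 and limma adjusted p values of 0.0131 to 0.131, under 0.05 in 2 cases, when the diabetic trained array left out was that of week 1 or 3. The limma adjusted p was 0.176 with arrays centred on the median, 0.0613 with no filter, 0.123 without the trend, 0.268, 0.0692 and 0.352 without week 1, 3 and 5, and 0.506 with no replicate block for week, where the pairing by week is ignored. The 1 member probe set called for diabetes became 0 with centred arrays, no filter, no trend, no replicate block, without week 3 or without week 5. It became 2 without week 1 (Col1a1 94305_at and Col3a1 98331_at), 3 with array weights, and 0 to 5 when an array was left out. The 5 came without the diabetic trained array of week 1 and included Col15a1 (-1.03, limma adjusted p = 0.0273). Over the same alternatives, all probe sets called numbered 0 to 192, against 57. In sedentary hearts the count of 0 became 3 with array weights, 1 with only the compared arrays and 0 to 2 with an array left out. In trained hearts, and for diabetic trained against healthy sedentary hearts, it became 0 to 1. The 4 of week 5 became 8 with array weights and without week 3, and 3 to 8 with an array left out. For week 5 against week 1, fitting only the compared arrays is the same fit as leaving out week 3. Of 4080 member values recomputed, 243 had a sign other than that reported. One of these exceeded its standard error in both fits: Col1a2 161156_r_at for training in diabetic hearts, 0.31, was -0.20 without week 3. The mean class difference stayed within its SD of 0.13 of the value reported, -0.003 with the other Col1a2 probe set, an alternative chosen after seeing the data. The blocked fit is the one reported. With 3 pools per condition, differences smaller than their standard errors could not be resolved, and larger ones could also miss the threshold. Col1a1 94305_at did so for diabetes (-1.01, SE 0.24, limma adjusted p = 0.0827). The causes of the shifts between alternatives were not tested.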

Other observations

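The other collagen chains on the array were 9 tested of 19 measured, and 0 passed in limma for diabetes, 1 being lower at an unadjusted p under 0.05. That 1 was Col6a3, a partner of Col6a1 in collagen VI, which read 101.4, 89.1 and 59.7 in healthy sedentary, 80.5, 93.1 and 70.8 in healthy trained, 56.8, 41.5 and 60.7 in diabetic sedentary and 86.9, 19.2 and 41.2 in diabetic trained hearts (-0.81, SE 0.26, limma adjusted p = 0.232). The remaining chain, Col6a2, ran from 44.7 to 124.4 and gave -0.19 (SE 0.18, limma adjusted p = 0.738) for diabetes, and it fell between weeks 1 and 5 (-0.71, SE 0.22, limma adjusted p = 0.0458; 3 of 12 fits with an array left out). Col2a1, Col4a3, Col4a4, Col11a1, Col11a2 and Col17a1 stayed at or under the highest control signal of 13.8 on all 12 arrays.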
